A study of Mus musculus with 12 samples.

Results

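The 44 genes described here encode enzymes and transporters of methionine, choline, folate and polyamine metabolism. They were chosen by name, as genes of these pathways, with earlier results of these data known. The methionine- and choline-deficient (MCD) diet of the study lacks methionine and choline. All 44 were among the 52459 genes of the count table. They fall into 9 roles, which are the methionine cycle (7 genes), transsulfuration (2), methionine salvage (5), polyamines (5), choline and ethanolamine phospholipids (8), choline transport (2), amino acid transport (6), folate one-carbon metabolism (6) and serine synthesis (3).

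Gene expression was measured by RNA sequencing of T cells sorted by flow cytometry, in a study of steatohepatitis, the inflammatory form of fatty liver disease. γδ T cells, which carry a receptor of a γ and a δ chain, came from wild-type (WT) C57BL/6 mice fed the control (Ctl) or the MCD diet. CD4+ T cells, which carry an αβ receptor and the CD4 co-receptor, came from WT and from γδTCR-/- mice on either diet, and the latter are called knockout here. Each of these 6 groups held 2 libraries, and all mice were 7 weeks old when the 6 weeks of feeding began. The labels give no strain for the knockout mice, no sex and no tissue, and do not say whether a library was 1 mouse or a pool, so the p-values measure only the spread between these samples, which may be technical. The labels do not explain the name D2-D1_GDT of 1 γδ MCD library, which is called γδ MCD library 2 below.

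Total counts per library were 17035638 to 23203603, of which genes of the mitochondrial genome took 40.8% to 56.8%. The γδ MCD libraries 2 and 4 stood apart, with 8989 and 10125 genes of at least 10 counts, where the other 10 libraries had 11903 to 13402. Of the 44 members, 32 and 36 had at least 10 counts in those libraries and 39 to 41 had them in each of the others. Cd4 had 13734 to 30107 counts in the CD4+ libraries and 18 to 52 in the γδ libraries. Counts of Trdc, from which the constant part of the δ chain is made, were 7552 to 14401 in γδ and 5 to 165 in CD4+ libraries, so both cell types carried their defining marker. The labels do not say which gene was removed in the knockout mice, and Trdc in sorted CD4+ cells does not check their genotype.

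As background, the methionine cycle turns methionine into S-adenosylmethionine, the methyl donor of most cellular methylation, and returns homocysteine to methionine with a methyl group from folate. Activated T cells are known for raising methionine uptake, folate one-carbon enzymes, serine synthesis and polyamine synthesis as they grow and divide. Choline enters cells through transporters and becomes phosphatidylcholine, a main membrane lipid, through the choline kinases, an enzyme that activates phosphocholine with CTP, and the cholinephosphotransferases, while the liver also makes phosphatidylcholine by methylating phosphatidylethanolamine. The liver forms of the methionine enzymes were low here: the hepatic synthetase gene Mat1a was at 0 in 11 of the 12 libraries, and Bhmt, which remethylates homocysteine with betaine, had 0 to 5 counts. Gnmt, the glycine methyltransferase of the liver, had 0 to 68 counts in γδ libraries, all in control library 7, and 0 to 4 in CD4+ libraries.

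Several members have near-identical copies elsewhere in the genome. A read that covers no differing base cannot be assigned by sequence alone, while one that covers a differing base can. The sequences below set 3 members whose readings matter here beside such a copy. Each pair gives 90 bases of the coding sequence on GRCm38 (GENCODE vM21), 5′ to 3′, with differing bases in capitals. The first pair, coding bases 31 to 120 of the synthetase gene Mat2a (chr6:72432799-72439558, minus strand) and the processed pseudogene Gm9523 (chr5:22693561-22694719, minus strand), holds 6 differences. The next pair, bases 64 to 153 of the hydrolase gene Ahcy (chr2:155059310-155074497, minus strand) and Gm9826 (chr1:7177739-7179037, plus strand), holds 1. The last pair, bases 79 to 168 of the decarboxylase gene Odc1 (chr12:17544794-17551505, plus strand) and Gm9260 (chr12:115982263-115993370, minus strand), holds 3.
Mat2a: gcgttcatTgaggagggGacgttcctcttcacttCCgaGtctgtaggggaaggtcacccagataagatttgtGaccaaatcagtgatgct
Gm9523: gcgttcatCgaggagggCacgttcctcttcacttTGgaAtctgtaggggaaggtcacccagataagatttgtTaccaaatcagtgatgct
Ahcy: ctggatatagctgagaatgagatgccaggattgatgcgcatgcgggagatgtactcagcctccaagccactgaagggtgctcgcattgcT
Gm9826: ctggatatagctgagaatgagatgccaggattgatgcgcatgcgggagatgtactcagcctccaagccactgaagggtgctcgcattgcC
Odc1: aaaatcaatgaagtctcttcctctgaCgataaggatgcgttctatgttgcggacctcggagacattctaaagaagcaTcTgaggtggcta
Gm9260: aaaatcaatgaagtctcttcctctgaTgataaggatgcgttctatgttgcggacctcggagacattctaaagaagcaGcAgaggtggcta

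Over whole coding sequences, cut into every run of 50 bases, 16 of the 44 members shared at least 1 run with another annotated gene and 28 shared none. Runs on either strand were counted, also those in genes that overlap the member's own locus. In 6 members more than 50% of the runs were shared: Amd1 and Sms (100% each), Chkb (95.7%), Ahcy (95.2%), Phgdh (74.3%) and Odc1 (68.3%). For Chkb the other gene was Gm44502, a read-through gene that overlaps the Chkb locus itself, and not a copy elsewhere. The share was 23% in Mat2a and 15.5% in Tyms. How the authors counted reads that fit several genes is not given in the sources used here, so the levels of these members are uncertain. The other genes that share runs with Ahcy had 0 to 5 counts per library in the deposited table, and those that share runs with Odc1 had 12 to 232. Among the members with the largest shared part, Ahcy and Amd1 also had low levels, as the plot of shared sequence against level shows.

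**Figure D1:**
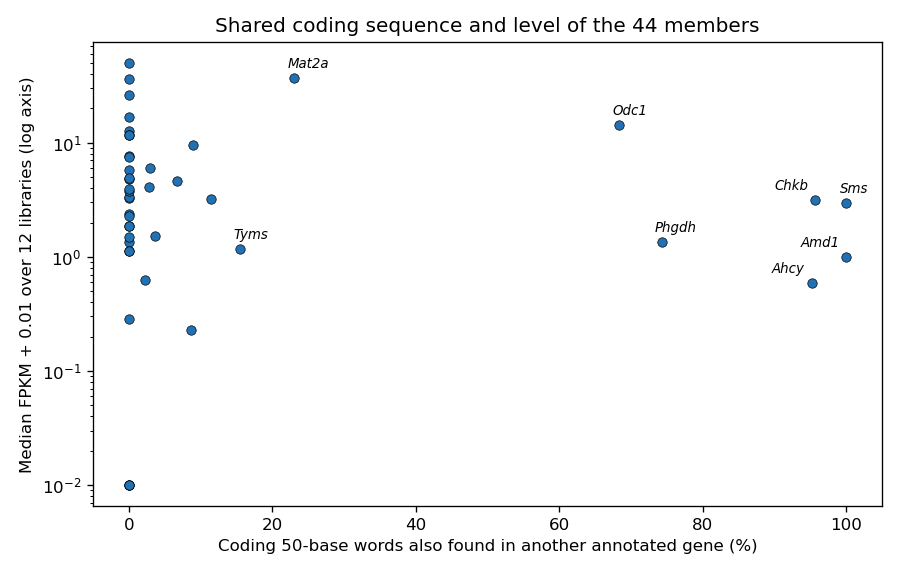
Share of coding 50-base runs that also occur in another annotated gene (horizontal axis, %) against the median FPKM over 12 libraries (vertical axis, log scale, 0.01 added so that 0 can be drawn); each point is 1 of the 44 members. Most members lie at or near 0%, and 6 lie above 50%, among them Ahcy at 95.2% with a median of 0.585 FPKM.

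The order of the levels was compared between genes on the deposited FPKM scale, which divides by transcript length. By the median over the 12 libraries, Adi1, which makes the last precursor of salvaged methionine, was highest at 49.6 FPKM. It was followed by Mat2a (37.2), the amino acid transporter Slc38a2 (36), the choline transporter-like Slc44a2 (26.3), Slc38a1 (16.7) and Odc1 (14.3). The ranges of these neighbours overlap: Adi1 spanned 12.2 to 191 FPKM and Mat2a 25.7 to 45.8 FPKM. At the low end stood Chka (0.615 FPKM), Ahcy (0.585), Pcyt2 (0.275) and Chpt1 (0.22). Cbs, Cth and Pemt had a median of 0 FPKM. Those 3 were too low to test, and the other 41 passed the filter on low counts that left 16218 genes. Levels of 1 gene across libraries are given below as CPM, counts per 1000000 counts of a library after scaling by edgeR's TMM factors, and the 2 values of a group stand in the order of their library numbers.

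**Figure D2:**
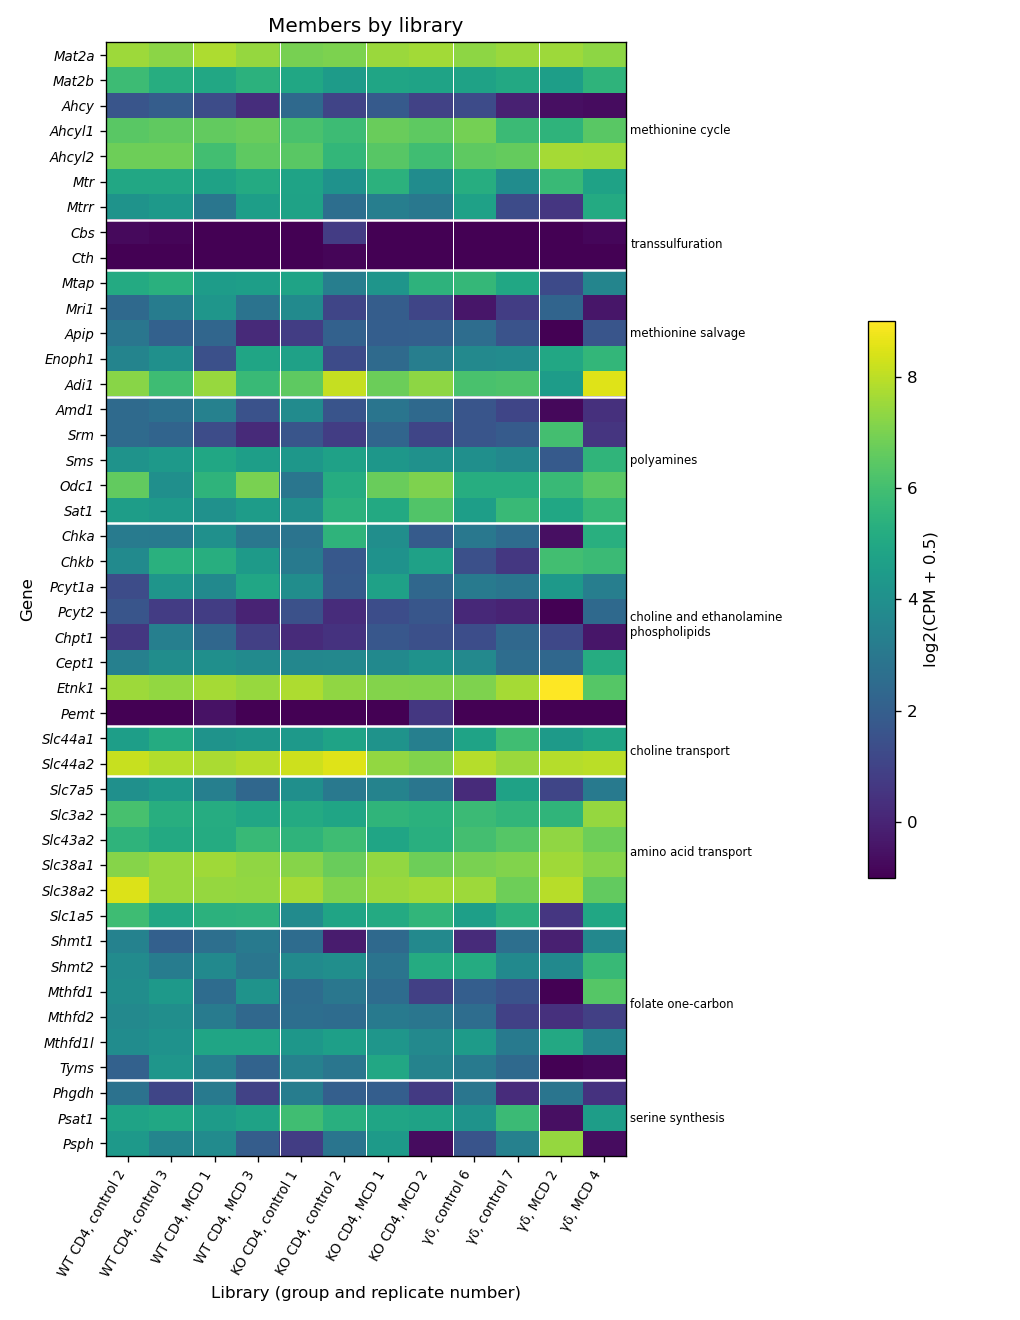
Level of each of the 44 members (rows, by role) in each of the 12 libraries (columns), as log2(CPM + 0.5); lighter is higher. Rows such as Mat2a and Slc38a1 are even across columns, Cbs, Cth and Pemt are dark in nearly all columns, and the 2 γδ MCD columns differ from each other in many rows.

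The diet comparison in γδ T cells asked how the γδ transcriptome differed on the MCD diet. No member passed an adjusted p of 0.05 in edgeR's quasi-likelihood test, and 0% of all genes tested did. At an unadjusted p under 0.05, 2 members were higher and 2 lower, where 17.5% of all genes reached that level. DESeq2 called 5 of the 41 members (Ahcyl2, Chkb, Mtap, Srm and Tyms) and 16.1% of all genes to which it gave an adjusted p, and limma-voom called 0 members. On the MCD diet 28 of the 41 members had a higher fitted level and 13 a lower one, with a median log2 fold change of 0.44 against -0.06 over all genes. That median rests on single libraries: without γδ MCD library 4 it was -0.90. In 8 members both MCD libraries lay above both control libraries (background 11.1%), and in 6 both lay below (background 22.1%). In bulk samples, fewer cells of a type and less RNA per cell cannot be told apart.

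In WT CD4+ T cells 0 members passed the same test between diets, as did 0% of all genes, 0 reached an unadjusted p under 0.05 (background 2.13%), and DESeq2 and limma-voom called 0. The smallest unadjusted p among members was that of Slc38a2, at 0.171. Next came Ahcyl2, Slc3a2, Srm and Mthfd1l, with log2 differences of -0.52, -0.70, -1.69 and 0.91. The median log2 fold change of the members was -0.15 against 0.00 over all genes, with 3 members above (background 16.7%) and 10 below (background 17.2%) without overlap. Leaving out single libraries moved this median between -0.25 and -0.02. In WT CD4+ libraries the macrophage and Kupffer cell list summed to 47.6 to 61.1 CPM on the control and 17 to 21.9 CPM on the MCD diet, and the neutrophil and monocyte list to 166 to 194 and 83.5 to 102 CPM. Of 14 tested macrophage and Kupffer cell genes 11 had a lower and 2 a higher fitted level. The 12 tested neutrophil and monocyte genes were mixed, with 5 lower, 4 higher and a median log2 of 0. Of 12 tested hepatocyte genes 10 had a lower fitted level, and of 15 tested endothelial genes 11 had, 7 of them at an unadjusted p under 0.05. The part of such cells in the WT CD4+ diet differences was not tested.

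In knockout CD4+ T cells 0 members passed in edgeR, where 0.037% of all genes did. At an unadjusted p under 0.05, 2 members were higher and 1 lower (background 6.06%). DESeq2 called 1 member, Slc44a2 (background 2.08%), and limma-voom 0. Here 10 members were higher without overlap (background 20.8%) and 8 lower (background 18.1%), and the median was 0.15 against 0.03 (-0.20 without knockout MCD library 1). For the mean of both CD4+ diet differences 0 members passed in edgeR (background 0.037%) or in either other tool, and 2 reached an unadjusted p under 0.05 (background 6.08%).

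**Figure D3:**
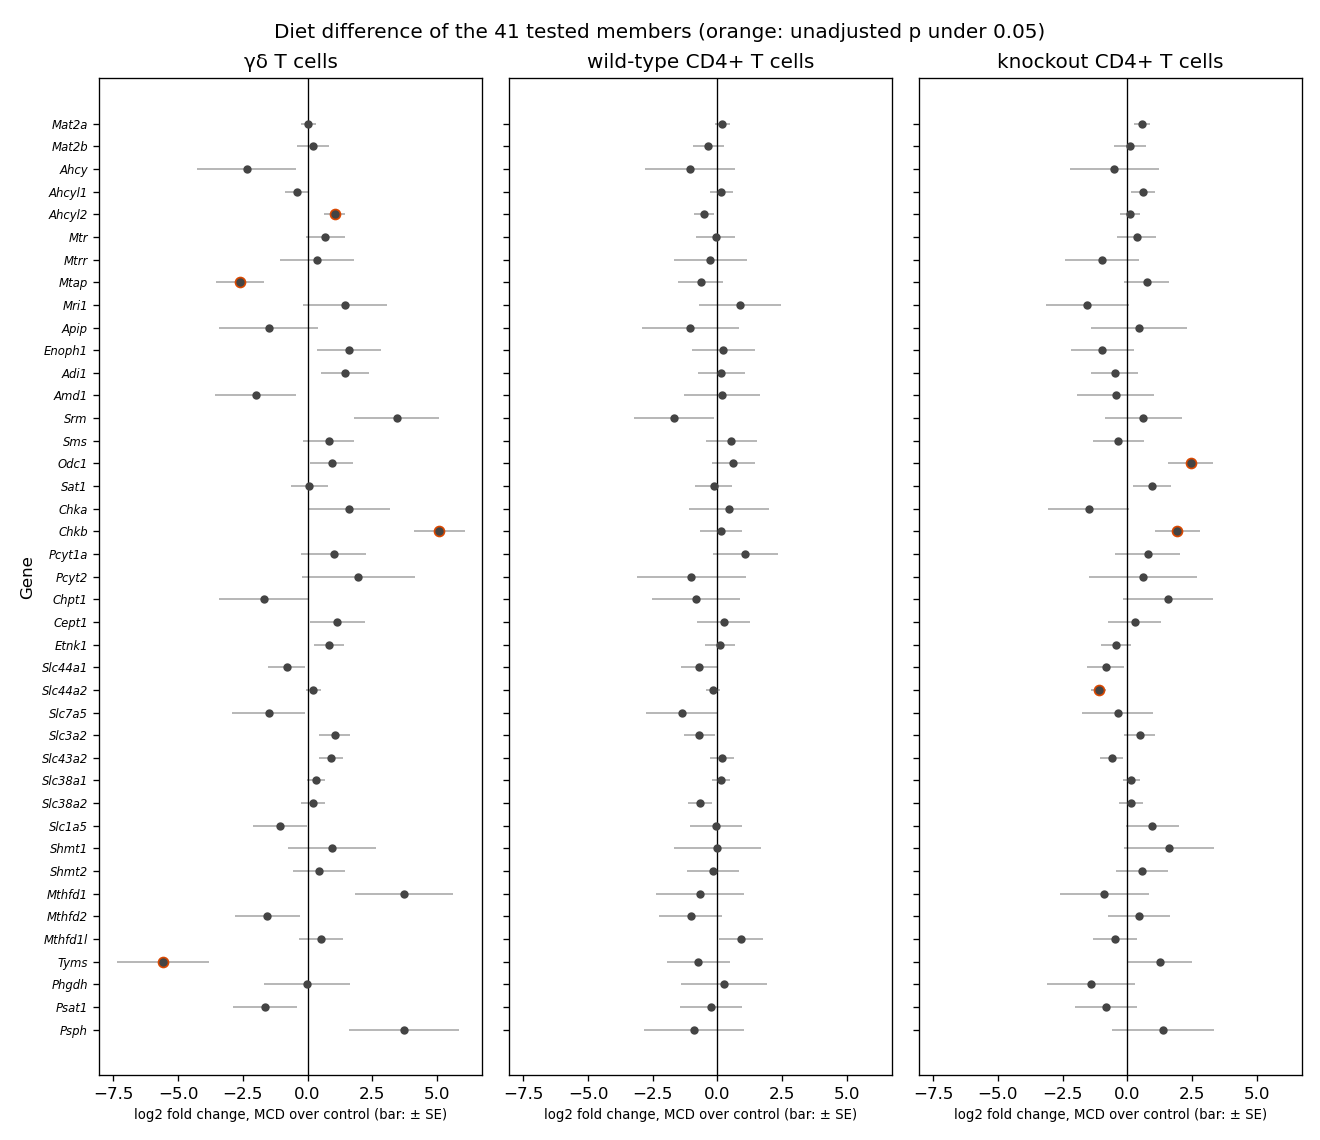
Log2 fold change of MCD over control diet for the 41 tested members (points, edgeR) with ± 1 SE (bars) in γδ, WT CD4+ and knockout CD4+ T cells, on a shared horizontal axis; orange marks an unadjusted p under 0.05. Orange are Ahcyl2, Mtap, Chkb and Tyms in γδ T cells and Odc1, Chkb and Slc44a2 in knockout CD4+ T cells, and no member in WT CD4+ T cells.

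The genotypes were compared to see how CD4+ T cells differ in mice without γδ T cells. On the control diet 0 members passed in edgeR (background 0.0247%), in DESeq2 or in limma-voom, and 1, Chkb, reached an unadjusted p under 0.05 (background 4.03%). In that comparison 17 of the 41 members were lower in knockout than in WT cells without overlap (background 20.6%) and 4 were higher (background 16.7%), and the median was -0.37 against -0.03 over all genes (-0.83 without knockout control library 1 and -0.23 without WT control library 3). The 17 included 5 of the 7 methionine cycle genes and 4 of the 6 amino acid transporters. The 15-gene list of B and plasma cell markers summed to 561 to 676 CPM in knockout and 324 to 387 CPM in WT control libraries, and the 9 T cell identity genes to 2973 to 3949.9 and 2309 to 2350.0 CPM, while the neutrophil and monocyte list summed to 55.6 to 56.8 and 166 to 194 CPM. Of 15 tested endothelial genes 10 were lower in knockout libraries without overlap. The summed level of the 16-gene endothelial list overlapped, at 158.9 to 162.5 CPM in knockout and 144.6 to 181.5 CPM in WT control libraries. The mitochondrial share of counts was 52.7% and 51.1% in knockout and 42.2% and 41.1% in WT control libraries, and genes of at least 10 counts numbered 12511 and 12100 in knockout and 13152 and 13402 in WT libraries. The part of these cells and of RNA quality in the genotype differences was not tested. On the MCD diet 0 members passed with any of the 3 tools (background 0% in edgeR) and 0 reached an unadjusted p under 0.05 (background 2.08%). There 6 members were higher (background 15.9%) and 7 lower (background 17%) without overlap, beside a macrophage and Kupffer cell list of 35.7 to 68.7 CPM in knockout and 17 to 21.9 CPM in WT libraries. These 2 comparisons share their WT and knockout groups with the diet comparisons and are not independent of them.

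γδ and CD4+ T cells of WT mice were compared on each diet. On the control diet 0 members passed in edgeR (background 0.654%), 1 in DESeq2 (background 6.85%) and 0 in limma-voom, and 1 reached an unadjusted p under 0.05 (background 10.9%). There 35 of the 41 members had a lower fitted level in γδ T cells, with a median of -0.42 against -0.06 over all genes (-0.27 without WT CD4+ control library 2). Without overlap 14 were lower (background 25.8%) and 2, Sat1 and Slc43a2, were higher (background 20.1%). Macrophage and endothelial markers and the sum of the B and plasma cell list, whose values stand beside Slc43a2 and Chkb, were higher in γδ libraries here. Of 13 tested B and plasma cell genes 8 had a higher and 5 a lower fitted level. The mitochondrial share of counts was 53.8% to 56.8% in γδ and 40.8% to 43.9% in WT CD4+ libraries over both diets, and the part of these in the cell type differences was not tested. On the MCD diet 1 member, Tyms, passed and was lower in γδ T cells (background 2.65%, with 1.18% lower and 1.47% higher), and 6 reached an unadjusted p under 0.05 (background 21.9%). Members without overlap were 8 higher (background 14.5%) and 8 lower (background 32%). Averaged over both diets, Slc43a2 passed as higher and Tyms as lower in γδ T cells (background 5.96%, with 3.42% higher and 2.53% lower), and 6 members reached an unadjusted p under 0.05 (background 26%). No member passed for either interaction in edgeR (background 0% for diet by genotype and 0% for diet by cell type). At an unadjusted p under 0.05 there were 1 and 4 members in these interactions (background 4.33% and 10.6%), and DESeq2 called 0 and 2 (background 0.507% and 5.06%).

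Mat2a encodes the catalytic subunit of the S-adenosylmethionine synthetase of tissues outside the liver. Its level was the steadiest of the tested members, with a 1.76-fold range over all 12 libraries. It read 186 and 154 CPM in WT control, 218 and 169.7 in WT MCD, 124 and 131 in knockout control and 183 and 194 in knockout MCD CD4+ T cells. The γδ values were 159 and 178 CPM on the control diet and 184 and 159 CPM on the MCD diet. Both knockout MCD libraries lay above both knockout control libraries, by 1.48-fold in the mean (log2 0.56 ± 0.30 SE, edgeR adjusted p = 0.787), while the γδ groups overlapped. Mat2b, the regulatory subunit, spanned 21.9 to 56.8 CPM.

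Ahcy encodes the hydrolase that splits S-adenosylhomocysteine, and Ahcyl1 and Ahcyl2 encode related proteins without that activity. Ahcy was scarce, at 2.62 and 3.34 CPM in WT control, 2.02 and 0.739 in WT MCD, 4.88 and 1.59 in knockout control and 3.04 and 1.47 in knockout MCD CD4+ T cells. Its γδ levels were 1.93 and 0.433 CPM on the control diet and 0.165 and 0.134 CPM on the MCD diet, from 38 and 8 counts on the control and 2 and 2 on the MCD diet, so that both MCD libraries lay below both control libraries (adjusted p = 0.411, edgeR). Ahcyl2 (chr6:29768011-29912310, plus strand) read 91.5 and 100.03 CPM in γδ control and 200.1 and 195 CPM in γδ MCD libraries, a 2.07-fold difference (log2 1.05 ± 0.39 SE, edgeR adjusted p = 0.218). In CD4+ libraries Ahcyl2 spanned 49 to 111 CPM, below both γδ MCD libraries. Against WT CD4+ T cells on the MCD diet the γδ mean was 2.57-fold higher (log2 1.36 ± 0.40 SE, edgeR adjusted p = 0.0833), which did not pass. Ahcyl1 read 69 and 58.3 CPM in knockout control and 104 and 91 CPM in knockout MCD libraries (edgeR adjusted p = 0.859).

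Mtr encodes methionine synthase, which needs cobalamin and methyl folate, and Mtrr encodes the reductase that keeps it active. Mtr read 31.7 and 31.5 CPM in WT control, 26.6 and 33.9 in WT MCD, 27.2 and 16.9 in knockout control and 42.3 and 14 in knockout MCD CD4+ T cells. Among γδ libraries it read 36.7 and 13.9 CPM on the control diet and 54.6 and 26.6 CPM on the MCD diet. The γδ groups overlapped and no comparison of Mtr reached an unadjusted p of 0.05. Mtrr was uneven within groups, with 25.6 and 1.95 CPM in the γδ control and 0.991 and 34.4 CPM in the γδ MCD libraries.

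Transsulfuration turns homocysteine into cysteine through Cbs and Cth. Cbs had 0 to 25 counts, with the 25 in knockout control library 2, and it was at 0 in 8 libraries. Cth had 1 count in that same library and 0 in the other 11. A count of 0 allows up to 3 counts per library, which is 0.13 to 0.248 CPM by counting error alone. Neither gene was detectable in most libraries at this depth.

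Methionine salvage rebuilds methionine from methylthioadenosine, the by-product of polyamine synthesis, through Mtap, Mri1, Apip, Enoph1 and Adi1. Mtap, which starts the route, read 50.4 and 30.8 CPM in γδ control and 1.9 and 11.2 CPM in γδ MCD libraries. Both MCD libraries were lower, by 6.19-fold in the mean (log2 -2.61 ± 0.93 SE, edgeR adjusted p = 0.202). DESeq2 gave an adjusted p of 0.0216 for the same difference. In CD4+ libraries Mtap spanned 9.28 to 43.7 CPM. Mri1, the isomerase of the next step, was lower in all 4 γδ than in all 4 WT CD4+ libraries, at 0.254 and 1.25 CPM (control) and 4.21 and 0.269 CPM (MCD) against 4.88 and 8.76 CPM (control) and 18.7 and 6.51 CPM (MCD). Its average difference between cell types was a log2 of -2.73 ± 1.19 SE (edgeR adjusted p = 0.154), and 8.86% of all genes were lower without overlap there. The knockout CD4+ libraries overlapped the γδ range of Mri1, at 1.63 to 13.4 CPM (control) and 1.66 to 3.32 CPM (MCD).

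Adi1 was high but uneven, at 91.2 and 282 CPM in knockout control and 22.6 and 365 CPM in γδ MCD libraries. Enoph1 read 12.7 and 13.7 CPM in γδ control and 31.7 and 49.4 CPM in γδ MCD libraries, without overlap. In the 8 CD4+ libraries Enoph1 spanned 1.97 to 29.2 CPM, and its γδ diet difference had an edgeR adjusted p of 0.493. Apip spanned 0 to 153 counts, with its 0 in γδ MCD library 2.

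Polyamines are made from ornithine by Odc1 and, with S-adenosylmethionine decarboxylated by Amd1, by Srm and Sms, while Sat1 acetylates them for export and turnover. Odc1 read 95.6 and 15.4 CPM in WT control, 45 and 125 in WT MCD, 7.12 and 36.4 in knockout control and 105 and 134 in knockout MCD CD4+ T cells. The WT groups overlapped and the knockout groups did not. In knockout cells the MCD mean was 5.49-fold higher (log2 2.45 ± 0.86 SE, unadjusted p = 0.0134, edgeR adjusted p = 0.722). The WT control libraries differed from each other by more than that, so the 4 control and 4 MCD libraries overlapped, and the diet by genotype term was a log2 of 1.84 ± 1.17 SE (edgeR adjusted p = 1.0). γδ T cells had 37.1 and 36.7 CPM on the control diet and 54.2 and 86.7 CPM on the MCD diet, with MCD above control in each library (edgeR adjusted p = 0.568). As the printed stretch shows, Odc1 has close copies.

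Srm, the spermidine synthase, read 64.1 and 0.941 CPM in γδ MCD libraries 2 and 4 and 0.647 to 4.92 CPM in the other 10 libraries. Its γδ diet difference, a log2 of 3.44 ± 1.64 SE (edgeR adjusted p = 0.287), rests on library 2 and was -1.52 without it. Amd1 was lower in both γδ MCD libraries, at 0.0825 and 0.806 CPM from 1 and 12 counts, than in both γδ control libraries, at 2.59 and 1.62 CPM. Against WT CD4+ T cells on the MCD diet Amd1 gave a log2 of -3.53 ± 1.67 SE (edgeR adjusted p = 0.209, DESeq2 adjusted p = 0.027). Sat1 was higher in all 4 γδ libraries (23.6 to 54.8 CPM) than in all 4 WT CD4+ libraries (16.3 to 23.2 CPM), a pattern shown by 5.56% of all genes. The knockout CD4+ libraries overlapped that range, and the edgeR adjusted p between cell types was 0.257. Sms read 3.05 and 46 CPM in the γδ MCD libraries and 12.3 to 30.5 CPM elsewhere.

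Choline kinase, encoded by Chka and Chkb, phosphorylates choline as the entry step of phosphatidylcholine synthesis. Chkb (chr15:89426360-89429908, minus strand) had the smallest unadjusted p of all members in the γδ diet comparison. It read 2.24 and 1.03 CPM in the control libraries and 62.2 and 55.4 CPM in the MCD libraries, from 44 and 19 counts on the control and 754 and 825 on the MCD diet. Both γδ MCD libraries lay above every other library of the study, and both γδ control libraries lay below every other. The means were 1.63 ± 0.855 and 58.8 ± 4.82 CPM (SD, n = 2), a 36-fold difference. It missed the threshold in edgeR (log2 5.09 ± 0.99 SE, adjusted p = 0.0724) and passed in DESeq2 (adjusted p = 4.96e-09). In edgeR it also passed in 9 of the 12 fits that left out 1 library, though not without γδ control library 6 or 7 or WT CD4+ MCD library 1 (adjusted p up to 0.159).

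In CD4+ T cells Chkb read 13.5 and 40.2 CPM in WT control, 37.7 and 21.2 in WT MCD, 8.24 and 2.84 in knockout control and 16.8 and 26.1 in knockout MCD CD4+ T cells. The knockout diet groups did not overlap (log2 1.93 ± 0.86 SE, edgeR adjusted p = 0.787), while the WT diet groups did. On the control diet Chkb was lower in γδ than in WT CD4+ T cells by 16.4-fold (log2 -3.96 ± 0.94 SE, edgeR adjusted p = 0.0858). Knockout CD4+ control libraries were lower than WT ones by 4.85-fold (log2 -2.26 ± 0.87 SE, edgeR adjusted p = 1.0). The diet difference of γδ T cells exceeded that of WT CD4+ T cells by a log2 of 4.95 ± 1.24 SE (edgeR adjusted p = 0.345, DESeq2 adjusted p = 0.000336). Annotated genes cover 57.6% of the exon bases of Chkb: the read-through gene Gm44502 on the same strand, which is not in the count table, and C730034F03Rik on the opposite strand. C730034F03Rik had 0 to 18 counts in γδ libraries, with 0 in both MCD libraries. The strand setting of the counting is not given in the sources used here.

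Markers of several cell types moved with diet in the γδ libraries, among them those of liver sinusoidal endothelium, and their part in the γδ diet differences was not tested. The summed level of the 16-gene endothelial list was 898 to 1686 CPM in γδ control libraries, 151 to 162 CPM in γδ MCD libraries and 77.7 to 181 CPM in CD4+ libraries. All 15 of its tested genes had a lower fitted level on the MCD diet and 13 did not overlap, with Kdr, Oit3, Lyve1 and Tek at 0 in both MCD libraries. The hepatocyte list summed to 50.4 to 83.7 CPM and 98.9 to 525 CPM in γδ control and MCD libraries, with Apoa1, Apoc3, Ttr, Serpina1a and Fgb at 0 in all 4. Its genes did not rise together: of 12 tested, 4 had a higher and 6 a lower fitted level on the MCD diet. Their median log2 difference was -0.31. Among the lower, Alb read 21.2 and 54.9 CPM in γδ control and 10.5 and 1.21 CPM in γδ MCD libraries. The neutrophil and monocyte list summed to 352 to 539 CPM and 771 to 879 CPM, with Retnlg, Ly6g and Ngp at 0 in all 4. The 9 T cell identity genes summed to 2758 to 3260.4 CPM in γδ control and 1981 to 2081 CPM in γδ MCD libraries, without overlap.

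Chka read 8.47 and 8.06 CPM in WT control, 15.6 and 7.3 in WT MCD, 6.78 and 44.5 in knockout control and 14.9 and 3.13 in knockout MCD CD4+ T cells. On the γδ side the values were 7.63 and 5.25 CPM on the control diet and 0.165 and 39.3 CPM on the MCD diet. Knockout control library 2 and γδ MCD library 4 stood above the rest, each beside a replicate that was several times lower. Pcyt1a, whose enzyme activates phosphocholine with CTP and sets the rate of phosphatidylcholine synthesis, read 1.98 and 18.3 CPM in WT control, 12.9 and 29.7 in WT MCD, 14.4 and 3.08 in knockout control and 25.7 and 4.55 in knockout MCD CD4+ T cells. The γδ values were 7.99 and 6.88 CPM on the control diet and 20.8 and 9.27 CPM on the MCD diet, without overlap (edgeR adjusted p = 0.707). Every CD4+ group of Pcyt1a overlapped with every other.

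Of the remaining phospholipid enzymes, the ethanolamine kinase Etnk1 was the highest per length at a median of 11.6 FPKM, and read 513 and 81.2 CPM in γδ MCD libraries 2 and 4 against 132 and 202 CPM on the control diet. Pcyt2, which serves the same step of the ethanolamine branch, and Chpt1, the cholinephosphotransferase, did not exceed 4.84 and 9.54 CPM in any library. On the control diet Chpt1 was lower in knockout than in WT CD4+ libraries, at 0.683 and 0.865 against 1.06 and 9.54 CPM (edgeR adjusted p = 1.0). Cept1, which serves both branches, spanned 4.54 to 36.1 CPM. Pemt, the methyltransferase of the liver route, had 23 counts in knockout MCD library 2, 4 counts in WT CD4+ MCD library 1 and 0 in the other 10 libraries.

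Slc44a1 and Slc44a2 encode choline transporter-like proteins. Slc44a1 read 24.2 and 34.9 CPM in WT control, 17 and 19.4 in WT MCD, 20.3 and 27.4 in knockout control and 17 and 9.48 in knockout MCD CD4+ T cells. All 4 CD4+ MCD libraries lay below all 4 CD4+ control libraries, the only member for which this held, and 2.24% of all genes were lower in this way. No member was higher in all 4, as 2.54% of all genes were. The average diet difference was a log2 of -0.77 ± 0.50 SE (unadjusted p = 0.146, edgeR adjusted p = 0.969). Its γδ levels were 27.4 and 60.1 CPM on the control diet and 21.6 and 28.1 CPM on the MCD diet, with overlap.

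Slc44a2 (chr9:21320698-21355028, plus strand) read 283 and 229.6 CPM in WT control, 210.0 and 244 in WT MCD, 299.6 and 363 in knockout control and 167 and 139 in knockout MCD CD4+ T cells. In knockout cells the MCD mean of 153 ± 19.5 CPM lay below the control mean of 331 ± 44.9 CPM (SD, n = 2) by 2.16-fold, with a narrow spread within each group. The log2 difference of -1.11 ± 0.28 SE had the smallest p of all members there (unadjusted 0.00155), and did not pass in edgeR (adjusted p = 0.33). It passed in DESeq2 (adjusted p = 0.0308) and, in edgeR, without γδ MCD library 2 or 4 or with the CD4+ libraries alone (adjusted p = 0.0481). WT CD4+ T cells overlapped between diets. The diet by genotype difference was a log2 of -0.94 ± 0.39 SE (unadjusted p = 0.0331, edgeR adjusted p = 1.0). Among γδ libraries it read 234 and 179 CPM on the control diet and 235 and 248 CPM on the MCD diet. Averaged over genotypes the CD4+ diet difference was a log2 of -0.65 ± 0.20 SE (edgeR adjusted p = 0.597).

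In the knockout CD4+ libraries the summed level of the 15-gene B and plasma cell list was 561 to 676 CPM on the control diet and 279 to 324 CPM on the MCD diet. The hepatocyte list summed to 110.2 to 142 CPM and 57.7 to 57.9 CPM, with Apoc3 at 0 in all 4 libraries, and the 9 T cell identity genes summed to 2973 to 3949.9 CPM and 2547 to 2665 CPM. The endothelial list summed to 158.9 to 162.5 CPM and 77.7 to 112.2 CPM. Fitted levels within these lists were mixed. Of 13 tested B and plasma cell genes 8 were lower and 5 higher on the MCD diet. Of 12 hepatocyte genes 7 were lower and 5 higher, and of 15 endothelial genes 7 were lower and 7 higher. The mitochondrial share of counts was 52.7% and 51.1% on the control and 43.9% and 41.1% on the MCD diet, and genes of at least 10 counts numbered 12511 and 12100 on the control and 12946 and 12753 on the MCD diet. The part of these cells and of RNA quality in the knockout diet differences of Slc44a2, Odc1 and Chkb was not tested.

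**Figure D4:**
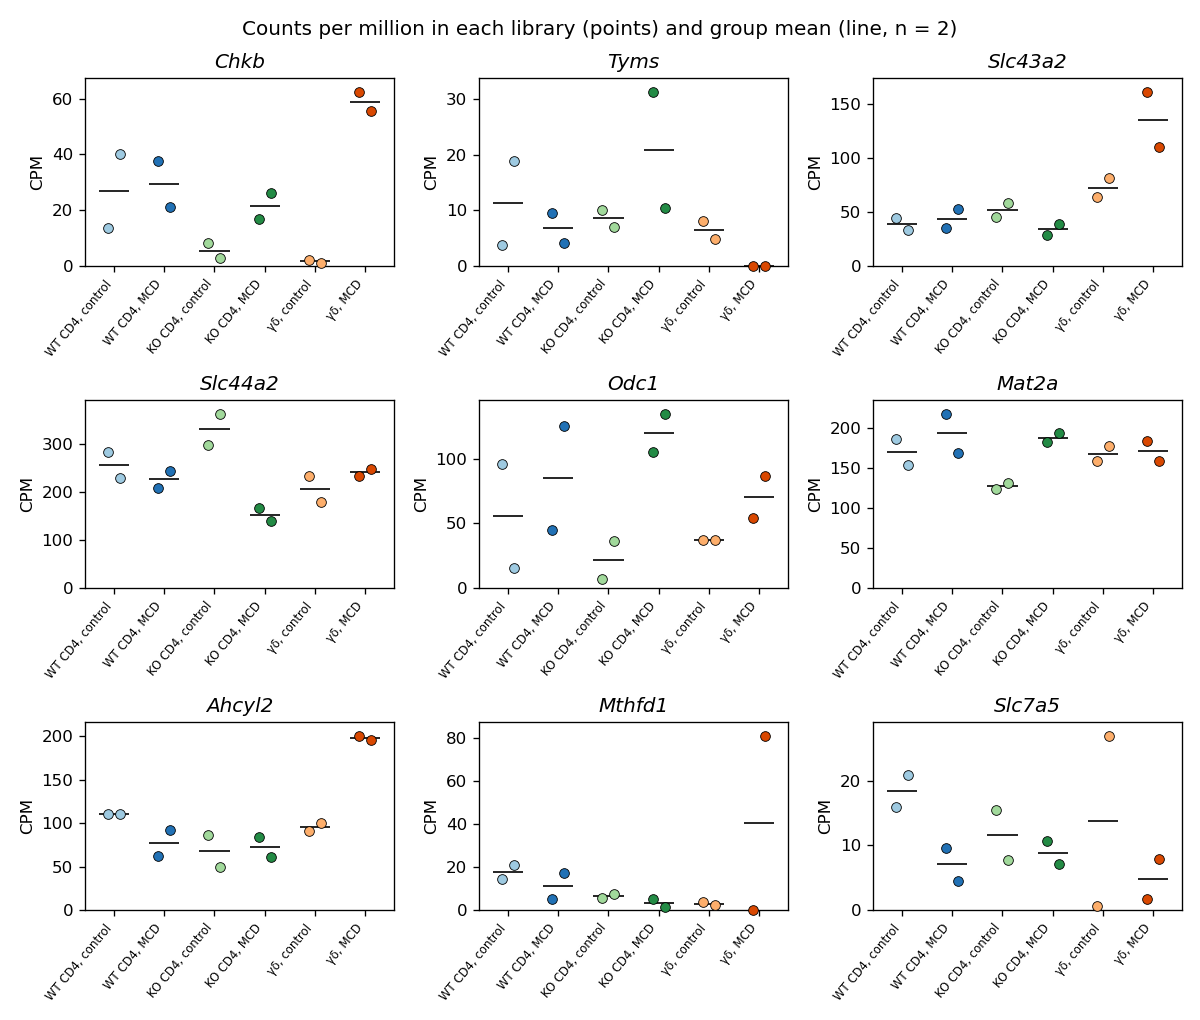
CPM of 9 members in each library (points) with the group mean (line, n = 2) for the 6 groups, each panel with its own linear axis from 0. Chkb and Slc43a2 are highest in the γδ MCD libraries, Tyms is at or near 0 there, Slc44a2 is lowest in knockout MCD CD4+ T cells, Mat2a is even, and the 2 γδ MCD points of Mthfd1 lie far apart.

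Slc7a5 and Slc3a2 encode the light and heavy chains of the main methionine and large neutral amino acid exchanger of T cells. Slc7a5 read 15.9 and 20.9 CPM in WT control, 9.58 and 4.53 in WT MCD, 15.4 and 7.69 in knockout control and 10.6 and 7.08 in knockout MCD CD4+ T cells. Both WT MCD libraries lay below both WT control libraries, by 2.61-fold in the mean (log2 -1.37 ± 1.39 SE, edgeR adjusted p = 1.0). γδ T cells had 0.661 and 26.9 CPM on the control diet and 1.65 and 7.93 CPM on the MCD diet. The γδ replicates of 1 diet differed more than the diets. Slc3a2 read 68.3 and 38.5 CPM in WT control, 36.3 and 29.4 in WT MCD, 34.1 and 28.9 in knockout control and 46.7 and 41.2 in knockout MCD CD4+ T cells. On the γδ side the values were 56.6 and 47.9 CPM on the control diet and 45.6 and 172 CPM on the MCD diet. Its γδ level on the MCD diet was 3.31-fold that of WT CD4+ T cells (log2 1.72 ± 0.61 SE, edgeR adjusted p = 0.136), and without library 4 the log2 difference was 0.47.

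Slc43a2 (chr11:75531694-75577575, plus strand), a facilitated transporter of methionine and other neutral amino acids, was the only member whose 4 γδ libraries all lay above all 8 CD4+ libraries, a pattern of 597 genes (3.68% of those tested). It read 64 and 81.1 CPM in γδ control and 161 and 109.8 CPM in γδ MCD libraries, against 29.1 to 58.5 CPM in CD4+ libraries. It rose in γδ against WT CD4+ T cells averaged over the diets, by a log2 of 1.26 ± 0.33 SE (edgeR adjusted p = 0.0397). The call was lost in 10 of the 12 fits without 1 library (adjusted p up to 0.206) and held without γδ MCD library 2 or 4, with the same direction in all 12. It was also lost on both FPKM scales, with no filter on low counts and with only the 4 groups of WT mice in the fit. Within the diets the log2 difference was 0.90 ± 0.46 SE on control (edgeR adjusted p = 0.478) and 1.62 ± 0.47 SE on MCD (edgeR adjusted p = 0.082).

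Macrophage genes moved with this difference. The 15-gene macrophage and Kupffer cell list summed to 977 to 1862 CPM in γδ control and 1751 to 2526 CPM in γδ MCD libraries, against 17 to 68.7 CPM in CD4+ libraries. In the average over diets 12 of its 14 tested genes had a higher fitted level in γδ T cells and 5 passed in edgeR. Its Lyz2 read 616 to 1616 CPM in γδ and 2.59 to 29.7 CPM in CD4+ libraries, while Clec4f and Timd4 were at 0 in both γδ MCD libraries. The sum of the B and plasma cell list was also higher, at 861 to 1106 CPM in γδ control and 734 to 879.7 CPM in γδ MCD libraries against 241 to 676 CPM in CD4+ libraries. Its genes were mixed. In the average over diets 7 of 13 tested had a higher and 6 a lower fitted level, with a median log2 of 0.16. The part of such cells in the level of Slc43a2 was not tested. Gm45606 overlaps 9.2% of the exon bases of Slc43a2 on the opposite strand and had 108 to 678 counts in γδ and 56 to 670 in CD4+ libraries.

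Slc38a1 and Slc38a2, sodium-coupled transporters of glutamine and other small neutral amino acids, were among the highest members. Slc38a1 had a 1.82-fold range over the 12 libraries (106 to 193 CPM). Slc38a2 read 358 and 174 CPM in WT control and 169 and 166 CPM in WT MCD CD4+ libraries (log2 -0.66 ± 0.46 SE, edgeR adjusted p = 1.0), and spanned 97.1 to 358 CPM overall. The exchanger Slc1a5 read 0.991 and 31 CPM in γδ MCD libraries 2 and 4 and 13.8 to 58.3 CPM in the other libraries.

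Tyms (chr5:30058202-30073617, minus strand) encodes the thymidylate synthase that spends a folate-bound carbon to make thymidylate for DNA. It was nearly undetected in the γδ MCD libraries. Those had 8989 and 10125 genes of at least 10 counts, against 13178 and 13024 in WT CD4+ MCD libraries 1 and 3. That difference in detection is not in the intervals below. Tyms had 0 and 1 counts in γδ MCD libraries 2 and 4 and 159 and 89 counts in the γδ control libraries. It read 3.87 and 18.9 CPM in WT control, 9.49 and 4.06 in WT MCD, 10.04 and 7.07 in knockout control and 31.2 and 10.5 in knockout MCD CD4+ T cells. In γδ control libraries it read 8.09 and 4.82 CPM, within the CD4+ range. Tyms fell against WT CD4+ T cells on the MCD diet (log2 -5.66 ± 1.78 SE, edgeR adjusted p = 0.0438) and in the average over diets (log2 -3.23 ± 1.07 SE, edgeR adjusted p = 0.0374). With 1 count in the lower group, the ratio of WT CD4+ to γδ MCD levels was 181 (95% exact interval 32.2 to 7159.9, counting error only). Between the diets within γδ T cells the ratio of control to MCD was 176 (interval 31.2 to 6965) and the difference did not pass (log2 -5.59 ± 1.78 SE, edgeR adjusted p = 0.0936). The call on the MCD diet was lost without knockout MCD library 1, WT CD4+ MCD library 1 or 3, or γδ MCD library 2 (adjusted p up to 0.153). Both calls were also lost on both FPKM scales and with the WT libraries alone (on the MCD diet, adjusted p up to 0.405). The average call was lost without WT CD4+ control library 3, γδ control library 6 or 7, knockout MCD library 1, or WT CD4+ MCD library 1 or 3 (adjusted p up to 0.172).

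Genes of dividing cells, summed as a list, were also lower in γδ MCD than in γδ control libraries. In WT CD4+ libraries the list was lower on the MCD diet without overlap, while Tyms overlapped between the diets. The 30-gene proliferation list summed to 522 to 649.7 CPM in γδ control, 243 to 476 CPM in γδ MCD, 704 to 748 CPM in WT control and 469 to 539 CPM in WT MCD CD4+ libraries. Against WT CD4+ T cells on the MCD diet 26 of its 30 genes had a lower fitted level in γδ T cells and 2 passed in edgeR. Their median log2 was -2.29. Over all 16218 genes tested 9031 had a lower fitted level, 1.18% passed as lower and the median was -0.30. Cdk1, Ccnb1, Cenpf, Kif20a, Bub1, Ube2c and E2f1 were at 0 in both γδ MCD libraries, while Mki67 had 734 to 1937 counts there. Cdk1 was at 0 in both γδ control libraries too. The part of cell division, and that of the fewer genes detected in the γδ MCD libraries, in the level of Tyms was not tested.

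Mthfd2, the mitochondrial folate enzyme that is high in dividing cells, read 12.4 and 14.8 CPM in WT control, 8.55 and 4.71 in WT MCD, 5.7 and 5.29 in knockout control and 7.97 and 7.18 in knockout MCD CD4+ T cells. The γδ values were 5.39 and 1.41 CPM on the control diet and 0.825 and 1.34 CPM on the MCD diet. Both γδ MCD libraries lay below every other library of the study. The average difference between cell types was a log2 of -2.24 ± 0.90 SE (edgeR adjusted p = 0.131, DESeq2 adjusted p = 0.00423). Mthfd1l, which releases formate from mitochondria, read 14.2 and 16.6 CPM in WT control and 29.3 and 28.7 CPM in WT MCD CD4+ libraries, without overlap (edgeR adjusted p = 1.0).

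The cytosolic folate enzyme Mthfd1 showed how far the 2 γδ MCD libraries can differ. It had 0 and 1204 counts in libraries 2 and 4. Its diet difference was a log2 of 4.74 without library 2 and -4.94 without library 4, and both passed in edgeR with the lone library assumed to vary like the other groups (adjusted p = 0.014 and 0.0497). On the control diet Mthfd1 was lower in γδ (3.51 and 2.38 CPM) and in knockout CD4+ (5.36 and 7.26 CPM) than in WT CD4+ libraries (14.5 and 21 CPM), and neither difference passed. The serine hydroxymethyltransferases, which move the carbon of serine onto folate, spanned 0.337 to 12.7 CPM for Shmt1 and 6.63 to 52.8 CPM for the mitochondrial Shmt2. Shmt2 read 6.63 and 35.3 CPM in the knockout MCD libraries, with a genotype difference on that diet of a log2 of 1.07 ± 1.01 SE (edgeR adjusted p = 1.0).

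Serine synthesis from glycolysis runs through Phgdh, Psat1 and Psph. Phgdh, the entry enzyme, read 6.4 and 1.65 CPM in WT control, 8.06 and 1.48 in WT MCD, 9.02 and 3.61 in knockout control and 3.5 and 1.1 in knockout MCD CD4+ T cells. Its γδ levels were 7.17 and 0.704 CPM on the control diet and 6.85 and 0.873 CPM on the MCD diet. In every group 1 library was over 2 times the other, and no comparison of Phgdh reached an unadjusted p of 0.05. Psat1 read 60.1 and 39.1 CPM in knockout control and 28.9 and 27 CPM in knockout MCD libraries, without overlap (edgeR adjusted p = 0.96). Psph had 2043 and 2 counts in γδ MCD libraries 2 and 4, and Psat1 had 2 and 345. Cct6a overlaps 10.4% of the exon bases of Psph on the opposite strand.

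Such splits were most frequent in the γδ MCD group. There the median fold between the 2 libraries was 2.91 over the 41 members and 1.94 over all genes tested, with 0.5 added to each CPM. In 17 of the 41 members (41.5%) the libraries differed by more than 4-fold, against 29.99% of all genes. In the other 5 groups 3 to 9 of the 41 members did so, and the median fold over members was 1.43 to 1.76. The members that split the γδ MCD group went both ways: Psph and Srm were high in library 2, and Chka, Psat1, Slc1a5 and Mthfd1 were high in library 4. With 1 of the 2 libraries left out, the members called in the γδ diet comparison numbered 3 without library 2, where 4.25% of all genes were called, and 9 without library 4, where 9.03% were.

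**Figure D5:**
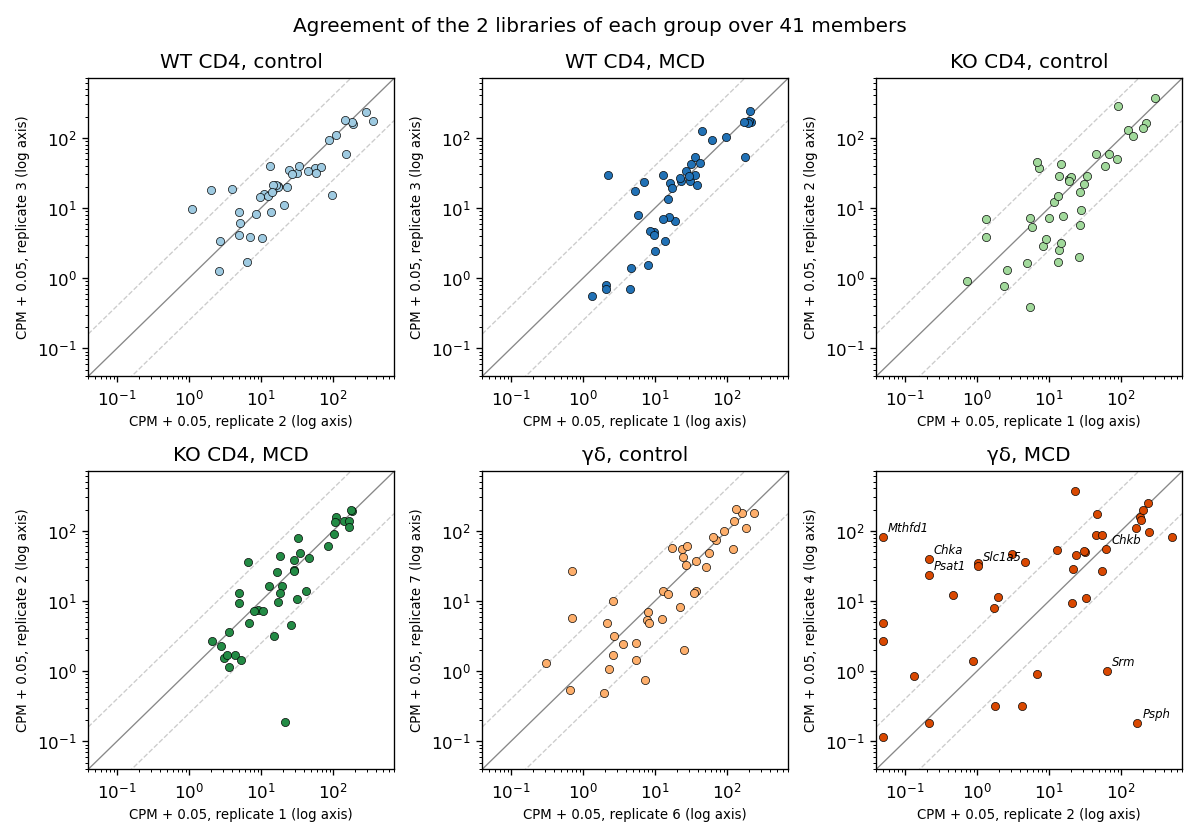
CPM of the 41 tested members in the 2 libraries of each group, plotted against each other on log axes with 0.05 added; the solid line marks equal values and the dashed lines a 4-fold difference. In the γδ MCD panel 17 members lie more than 4-fold apart by the measure in the text, against 3 to 9 in the other panels, and 6 members far from the line, and Chkb close to it, are labelled.

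Other genes of these pathways were described by a list of 73 genes, of which 52 were tested. None of the 52 passed in any of the diet or genotype comparisons in edgeR, and the numbers at an unadjusted p under 0.05 were 6 in γδ, 1 in WT CD4+ and 2 in knockout CD4+ T cells between diets (background 17.5%, 2.13% and 6.06%). Their median γδ diet difference was a log2 of -0.34, below that of the members. Between cell types 1 passed, the amino acid transporter Slc7a8, which is named after its values were seen. It had 359 to 1445 counts in γδ and 0 to 81 in CD4+ libraries, beside the macrophage genes given above. Of 17 tested genes of the ATF4 amino acid response, which is known to be switched on when amino acids run short, 0 passed in any diet comparison in edgeR. At an unadjusted p under 0.05 there were 4 of the 17 in γδ T cells, 2 higher and 2 lower on the MCD diet. There were 3 in WT CD4+ and 3 in knockout CD4+ T cells, all of them higher. These numbers stand against the same backgrounds. The median log2 differences of the 17 were 0, 0.02 and -0.03, against -0.06, 0.00 and 0.03 over all genes. Of 9 glutathione genes 0 passed between diets. At an unadjusted p under 0.05 there were 2 in γδ, 1 in WT CD4+ and 0 in knockout CD4+ T cells, against the same backgrounds. Those of higher fitted level under MCD were 7, 8 and 6 of the 9, where 6892, 8054 and 8266 of all 16218 genes were. Their median log2 differences were 1.71, 0.87 and 0.24, against -0.06, 0.00 and 0.03 over all genes. Of 12 tested genes of Myc and mTORC1 amino acid sensing 0 passed between diets.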

How the data were processed

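The submitters' processing notes name the tools bcl2fastq, STAR, featureCounts and DESeq2 and the builds mm10 and GRCm38, and give no versions, roles, annotation or strand setting. The authors deposited raw counts per gene for 12 libraries, 17035638 to 23203603 per library, and FPKM values per gene, whose ratio to the counts followed DESeq2 size factors.

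Members and gene lists were chosen with earlier results of these data known. Genes passing edgeR's filterByExpr (minimum count 10, minimum total 15) numbered 16218. The model had 1 coefficient for each of the 6 groups and took in every library; it was fitted in edgeR 4.0.16 (TMM, quasi-likelihood test, 2-sided, prior count 2) under R 4.3.3, with Benjamini-Hochberg adjustment over all genes tested and a threshold of 0.05. Alternatives used RLE, DESeq2 1.42.0, limma 3.58.1 (voom, and log2 FPKM with 1 or 0.1 added), other filters and fewer libraries. Low counts have exact 95% intervals, which cover counting error only. The text gives per-library values for 14 members fixed by symbol. Named by rule in each comparison were members past the threshold or, where fewer than 5 passed, those with the smallest p up to 5. Fold changes are given for part of these. Differences beyond the rule were chosen after their values were seen. Among them are those of Enoph1, Psat1, Mthfd1 and Sat1 and the WT CD4+ diet fold of Slc7a5. Positions, copies (BLASTN 2.17.0) and 50-base runs came from GENCODE vM21 on GRCm38.

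Replicate numbers 1 and 2 are shared by both knockout groups. Deviations of same-numbered libraries from their group means had a correlation of -0.00171 across 16218 genes, so the numbers were not taken as pairs.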

Additional observations from a re-analysis of the deposited data

How the results depend on the processing

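The number of members past the threshold depended on the tool and on single libraries, as did the share of all genes past it, given in brackets beside the larger numbers. In γδ T cells between diets it was 0 in edgeR, 5 in DESeq2 (16.1%), 3 with no filter on low counts (2.14%) and 1 on log2(FPKM + 1) and on log2(FPKM + 0.1) (0.913% and 1.29%), with 0 to 9 when each library was left out in turn. In knockout CD4+ T cells between diets it was 0 in edgeR and 1 in DESeq2 (2.08%), with no filter (0.406%) and with the CD4+ libraries alone (0.582%; 0 to 1 leaving out libraries). Between cell types it was 0 on the control diet and 1 in DESeq2 (6.85%) and with no filter (1.37%; 0 to 1). On the MCD diet it was 1, but 7 in DESeq2 (21.1%), 2 in limma-voom (4.85%) and 0 on both FPKM scales and with the WT libraries alone (0 to 13). In the average it was 2, but 6 in DESeq2 (21.4%), 1 with no filter (6.14%) and 0 on both FPKM scales and with the WT libraries alone (0 to 10). For diet by cell type it was 0 and 2 in DESeq2 (5.06%; 0 to 5). The highest numbers came without γδ MCD library 4 in the γδ, cell type MCD, average and diet by cell type comparisons, where 9.03%, 12.8%, 15% and 3.93% of all genes were called. The WT CD4+ diet, average CD4+ diet, both genotype and the diet by genotype comparisons gave 0 under every setting run. The cause of these changes was not tested.

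Leaving out 1 library turned the sign of 5 of the differences named by rule, none of them past the threshold with all 12 libraries. Their log2 ranges were -1.52 to 4.42 for Srm between γδ diets, -0.48 to 5.48 for Srm between cell types on the MCD diet, -2.94 to 0.50 for Odc1 between genotypes on the control diet, -0.57 to 1.82 for Shmt2 between genotypes on the MCD diet, and -0.0059 to 3.43 for Odc1 in diet by genotype. The γδ diet difference of Mthfd1, named after its values were seen, also turned, between -4.94 and 4.74. With the replicate block for the numbers 1 and 2 of the knockout groups, 0 members passed between diets, as without it, and no named member changed its call. No paired analysis was possible for the other comparisons because their groups share fewer than 2 replicate numbers. RLE scaling and leaving out mitochondrial genes changed no count of members past the threshold.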
